A study of Mus musculus with 11 samples.

Results

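Transcripts of 9 integrin chains and of Klrg1, an inhibitory receptor that binds E-cadherin, were read across Treg cells sorted for 1 transgenic T cell receptor. The cells were recovered from lymphoid organs or from visceral fat, with and without antigen. The members are the genes Itga4, Itga6, Itgae, Itgal, Itgav, Itgb1, Itgb2, Itgb3, Itgb7 and Klrg1, taken by name from the deposited gene count table, where they are 10 of 52997 genes. All 10 passed the filter on low counts. The cells were vTreg53 TCR-tg Treg cells, which express the receptor (Vα2 and Vβ4) of a clone found in epididymal visceral adipose tissue (VAT). Their donors were males on the C57BL/6 background that were CD45.2+, carried the transgene (Tg+) and had the Foxp3-GFP knock-in (KI/y), and the recipients were male CD45.1+ B6 mice, which kept their own T cells, and clonotype+ CD45.2+ Treg cells were double-sorted from pooled spleen and lymph nodes (Spl/LN) or from VAT. In the groups called adjuvant/Fat1562, recipients were primed 6 weeks after transfer with the surrogate peptide Fat1562 in complete Freund's adjuvant and boosted 1 week later with the peptide in incomplete Freund's adjuvant. Control recipients received the adjuvants without peptide according to the study's methods, whereas the sample labels name PBS and call them unimmunized, and the term adjuvant alone is used here. All 4 groups therefore share the transgenic receptor, the transfer and the sort. The paper describes the receptor repertoire of the line as strongly skewed to the clone. The cells stand for 1 clonotype of Treg cells as defined by staining for Vα2 and Vβ4. There were 3 libraries for Spl/LN with adjuvant alone, 3 for Spl/LN with adjuvant/Fat1562, 2 for VAT with adjuvant alone and 3 for VAT with adjuvant/Fat1562, each from 1000 cells, and the age given in the labels was 15 weeks.

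Integrins are receptors made of an alpha and a beta chain that hold cells to each other and to the extracellular matrix, and a chain can pair with several partners. On T cells the αL chain pairs with β2 to form LFA-1, which binds ICAM proteins during adhesion to antigen-presenting cells and vessel walls. The α4 chain pairs with β1 to bind VCAM-1 and fibronectin or with β7 to bind MAdCAM-1 of gut vessels, and the αE chain (CD103) pairs with β7 to bind E-cadherin on epithelium. The αV chain pairs with β1, β3 or β8 and binds vitronectin, osteopontin and the latent form of TGF-β, and α6 with β1 binds laminins. Klrg1 is a lectin-like receptor with an inhibitory motif (ITIM) in its tail. It is found on antigen-experienced T cells and NK cells and on effector-type Treg cells, including many of those that live in visceral fat, and it shares the ligand E-cadherin with αEβ7.

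Total counts ran from 4490242 to 6570057 per library, and replicate libraries differed from each other by more than sampling noise (chi-square over its degrees of freedom, 5.27 or more). Levels are given below as normalized counts, which are the counts after TMM scaling, set to a library of mean size. The paper's methods describe the libraries as biological replicates, and neither they nor the labels say whether each came from a separate mouse. The p-values set differences between groups against the spread between these libraries, estimated over the 4 groups together. The sorted cells carried the markers of Treg cells, with Foxp3 between 6747 and 10249.9 normalized counts in every library, and Cd4, Cd3e and Il2ra each at 2114 or more. Of 6 Treg genes, 3 were called higher and 1 lower in VAT in each tissue comparison, beside 16.3% and 15.0% of all tested genes. By edgeR's quasi-likelihood test, Il2ra was higher by 1.88 with adjuvant alone and 1.92 with Fat1562 on the log2 scale (adjusted p = 1.76e-07 and 9.29e-08). Ctla4 (1.20 and 0.87) and Foxp3 (0.40 and 0.31) were also higher, and Cd3e was lower (-0.26 and -0.23). Markers of other cell types were low for macrophages (8 genes summing to 19.1 to 120), fibroblasts (5 genes, 13.9 to 41.6), adipocytes (5 genes, 0.953 to 21.2) and platelets (5 genes, 0 to 19.1). Dendritic cell markers (5 genes, 3 tested) summed to 50.5 to 225. Of these, 1 and 2 were called higher in VAT with adjuvant alone and with Fat1562, beside 9.09% and 8.26% of all tested genes. The B cell list (6 genes) was led by Ighm, which reached 6015 and 28547 in the 2 VAT libraries with adjuvant alone and 6330 to 17028 elsewhere, and Cd74 (720 to 1451) and Cd79b (47.2 to 204) were also expressed, while Ms4a1 stayed at or below 6.51. Ighm was called lower in VAT after Fat1562 (adjusted p = 0.0415), Cd79b lower in VAT than in Spl/LN with Fat1562 (-1.18, adjusted p = 0.00589), and Cd74 lower in VAT with adjuvant alone (-0.85, adjusted p = 0.00011) and higher in VAT after Fat1562 (0.59, adjusted p = 0.00622). The CD8 T and NK list (7 genes) was led by Gzmb at 2108 to 7559, which was higher in VAT with adjuvant alone (1.19, adjusted p = 0.0134). Of the same list Cd8a was at or below 6.39, Cd8b1 at 66.3 to 193, Nkg7 at 43.8 to 961 and Prf1 at 77.0 to 423. Nkg7 rose after Fat1562 in Spl/LN (2.11, adjusted p = 0.000817) and in VAT (2.82, adjusted p = 7.95e-05), and Prf1 in VAT (2.03, adjusted p = 0.000534). Between tissues, Nkg7 was higher in VAT with Fat1562 (1.43, adjusted p = 0.00207), and Prf1 was lower in VAT with adjuvant alone (-1.14, adjusted p = 0.0187) and higher with Fat1562 (0.96, adjusted p = 0.0164). The part of these markers in the results on the 10 genes was not tested. The endothelial list (4 genes) was led by Pecam1, which had 293 and 234 in VAT with adjuvant alone and 412 to 589 elsewhere. By the same edgeR test Pecam1 was lower in VAT with adjuvant alone (-0.89, adjusted p = 0.00123) and rose in VAT after Fat1562 (1.00, adjusted p = 0.00111). It was also called in the interaction of tissue and immunization (0.92, adjusted p = 0.0266), and its part in the results was not tested. In bulk libraries of sorted cells, fewer cells that express a gene and less RNA per cell cannot be told apart.

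All 10 genes have exons on the primary chromosomes of GRCm38 (GENCODE vM21), the assembly that mm10 stands for in the submitters' processing notes. Itga6, Itga4 and Itgav lie on chr2 (chr2:71745616-71858416, chr2:79255426-79333123 and chr2:83724397-83806916, plus strand), and Itgae and Itgb3 on chr11 (chr11:73090583-73147446 and chr11:104608000-104670476, plus strand). Itgal (chr7:127296260-127335138), Itgb1 (chr8:128685654-128733200) and Itgb2 (chr10:77530252-77565708) are also on the plus strand, and Itgb7 (chr15:102215995-102231944) and Klrg1 (chr6:122270596-122282882) are on the minus strand. Klrg1 is the shortest, with a transcript of 1414 bases in 5 exons, and Itga4 the longest at 9767 bases in 28 exons. Of the 38-base stretches of Itga4, 12% also occur in other annotated genes and 1124 exon bases overlap Cerkl on the opposite strand, and for Itga6 6.76% occur elsewhere. For Itgav, 634 exon bases overlap Gm13684 on the opposite strand. The setting for strand in the counting is not given in the sources used here, so reads of these overlaps cannot be assigned to one gene.

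Per kilobase of the longest transcript, Itgb7 and Klrg1 had the highest levels of the 10 genes. In Spl/LN with adjuvant alone the means were 4811 ± 340 normalized counts per kb (SD, n = 3) for Itgb7 and 3595 ± 319 for Klrg1, followed by Itgae (1427 ± 93.1), Itgb2 (1369 ± 134) and Itgal (698 ± 42.9). Itgb1 (279), Itga4 (96.6), Itga6 (42.9), Itgav (32.1) and Itgb3 (19.2) were lower. In VAT with adjuvant alone the order was Klrg1 (9002 ± 121, n = 2), Itgb7 (4110 ± 1030), Itgb2 (1627), Itgal (507) and Itgae (473), then Itga4 (238), Itgav (187), Itgb3 (91.6), Itgb1 (56.2) and Itga6 (26.7). Between these 2 groups Klrg1 and Itgb7 changed places, and Itgb1 went from the 6th to the 9th place while Itgav went from the 9th to the 7th.

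Windows before the transcription start, from RefSeq, were at hand for 4 of the 10 genes. For Itga4, Itgav and Itgb1, which were called between tissues and after Fat1562 in Spl/LN, the 250 bases before the start are shown (GRCm38.p6), since Itga4 and Itgav were higher and Itgb1 lower in the same comparisons. Capitals mark matches, on either strand, to any of 7 motifs searched. For RUNX factors the letters searched were TGTGGT. For SMAD proteins the letters searched were CAGACA. For AP-1 factors they were TGANTCA, where N is any base. For GATA factors they were AGATAA in this search. For the SP and KLF families they were GGGCGG in this search. For ETS factors they were CCGGAAGT in this search. For NFAT factors they were GGAAAA in this search.
Itga4 (chr2:79255176-79255425, plus strand): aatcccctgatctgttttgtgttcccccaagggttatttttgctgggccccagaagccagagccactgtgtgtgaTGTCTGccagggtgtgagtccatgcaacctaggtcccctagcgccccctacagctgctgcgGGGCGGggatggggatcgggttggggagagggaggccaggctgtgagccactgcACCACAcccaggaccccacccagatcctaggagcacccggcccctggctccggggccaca
Itgav (chr2:83724147-83724396, plus strand): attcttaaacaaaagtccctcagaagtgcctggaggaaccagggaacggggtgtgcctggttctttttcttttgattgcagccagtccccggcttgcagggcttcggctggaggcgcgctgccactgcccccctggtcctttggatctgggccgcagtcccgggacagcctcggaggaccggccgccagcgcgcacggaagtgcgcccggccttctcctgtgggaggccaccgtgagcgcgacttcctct
Itgb1 (chr8:128685404-128685653, plus strand): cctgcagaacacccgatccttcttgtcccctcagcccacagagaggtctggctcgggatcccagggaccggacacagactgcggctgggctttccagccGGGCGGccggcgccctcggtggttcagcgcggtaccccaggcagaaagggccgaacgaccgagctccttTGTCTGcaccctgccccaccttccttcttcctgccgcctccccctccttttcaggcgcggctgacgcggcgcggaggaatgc
The Itga4 window held RUNX letters at -60, SMAD letters at -175 and SP/KLF letters at -114, counted in bases from the start. The Itgb1 window held SMAD letters at -82 and SP/KLF letters at -151, and those of Itgav and of Itgb7 held none of the 7. Among 32851 promoter windows of the same length in RefSeq, 14% held the RUNX letters, 17.1% the SMAD letters and 32.7% the SP/KLF letters, against 6.75% for AP-1, 9.99% for GATA, 2.88% for ETS and 20.4% for NFAT. A match describes letters only.

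Between tissues most of the 10 genes differed, and after Fat1562 most of them changed in Spl/LN and 1 in VAT. By edgeR's quasi-likelihood test (adjusted p under 0.05 over 12932 tested genes), 7 of 10 were called between VAT and Spl/LN with adjuvant alone, 4 higher (Itga4, Itgav, Itgb3, Klrg1) and 3 lower (Itgae, Itgal, Itgb1), where 16.3% of all tested genes were called, 9.09% higher and 7.18% lower. With adjuvant/Fat1562, 6 were called between the tissues, Itga4, Itgav and Itgb3 higher in VAT and Itgal, Itgb1 and Itgb7 lower, where 15.0% of tested genes were called (8.26% higher and 6.73% lower). In Spl/LN, 7 were called after Fat1562, with Itga4, Itgav, Itgb3, Itgb7 and Klrg1 higher and Itgae and Itgb1 lower, against 3.98% of tested genes (2.58% higher and 1.40% lower). In VAT, Klrg1 alone was called, lower after Fat1562, against 8.30% of tested genes (4.33% higher and 3.97% lower). The change after Fat1562 differed between the tissues, by the interaction term, for 4 genes, upwards for Itgae and downwards for Itga4, Itgb3 and Klrg1, against 3.72% of tested genes (1.70% and 2.02%). Libraries of the groups compared did not overlap for 9, 7, 7 and 3 of the 10 genes in these comparisons other than the interaction, in the same order, against 41.4%, 36.2%, 21.2% and 41.1% of tested genes. Itga6 and Itgb2 were called in none of the 5 comparisons. The median log2 fold change of the 10 genes was 0.01 and -0.18 between the tissues, 0.30 after Fat1562 in Spl/LN, -0.02 in VAT and -0.37 for the interaction, and over all tested genes the medians lay between -0.03 and 0.01. The comparisons share libraries: Spl/LN with adjuvant alone enters both the tissue comparison and the one after Fat1562, so the values below are set side by side and are not independent.

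**Figure D1:**
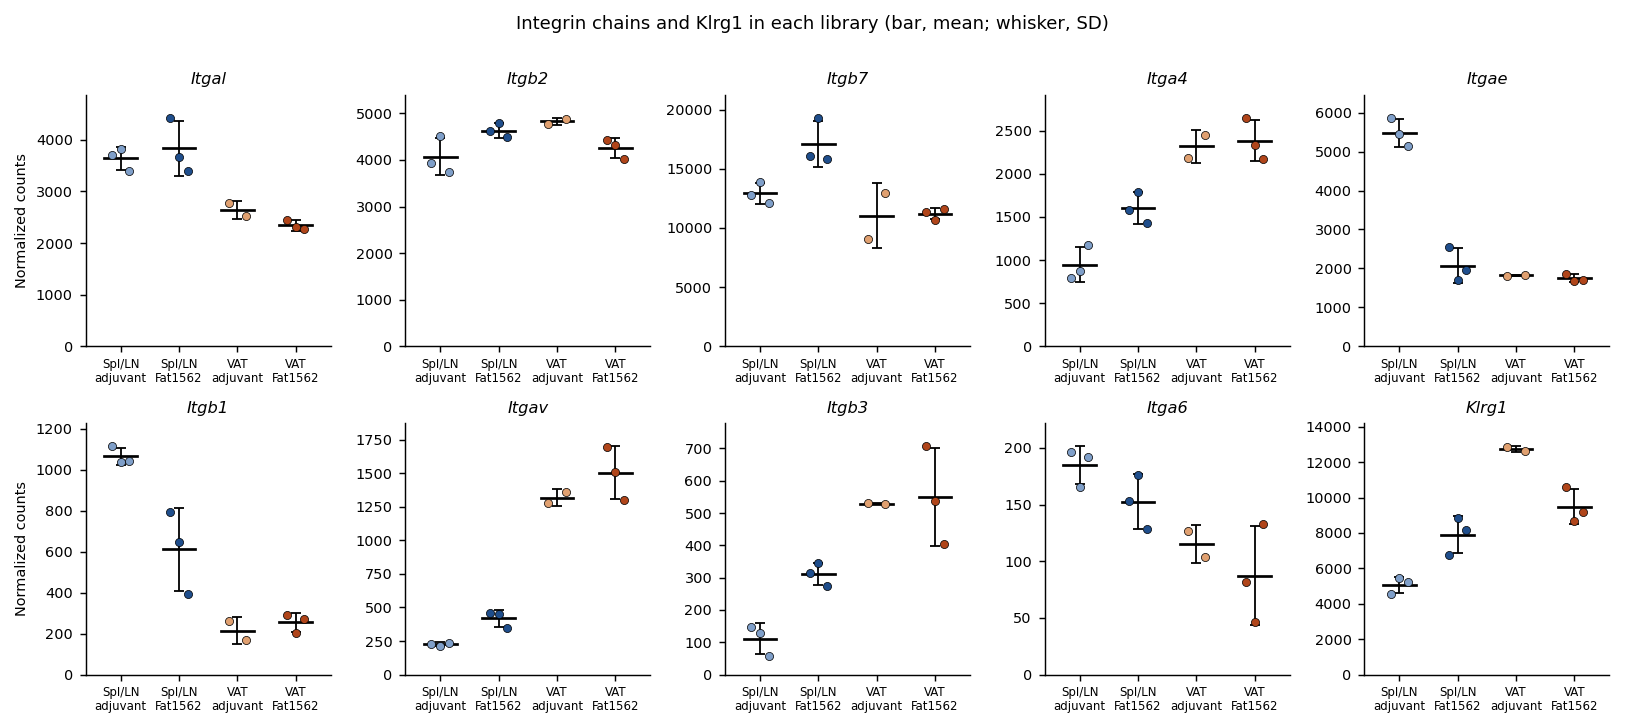
Normalized counts of the 10 genes in each of the 11 libraries (points), by tissue and immunization, with the group mean (bar) and SD (whisker), on linear axes from 0. Itga4, Itgav, Itgb3 and Klrg1 are lowest in Spl/LN with adjuvant alone, where Itgae and Itgb1 are highest, and the Spl/LN libraries with Fat1562 lie between those and VAT for Itga4, Itgav, Itgb3 and Itgb1.

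Of the LFA-1 chains, αL was lower in VAT and β2 was not called. Itgal had 3705, 3832 and 3397 normalized counts in the Spl/LN libraries with adjuvant alone and 4426, 3672 and 3401 with adjuvant/Fat1562, against 2770 and 2522 in VAT with adjuvant alone and 2456, 2305 and 2264 with adjuvant/Fat1562. No VAT library reached the lowest Spl/LN library. Itgal fell 1.38-fold in VAT with adjuvant alone (log2 fold change -0.46, SE 0.11, adjusted p = 0.00619) and 1.64-fold with adjuvant/Fat1562 (-0.71, SE 0.10, adjusted p = 4.7e-05), and without library 2 of VAT with adjuvant alone the former was no longer called (adjusted p = 0.0815). After Fat1562 its log2 fold change was 0.07 in Spl/LN (95% confidence interval -0.13 to 0.27) and -0.18 in VAT (-0.40 to 0.05), and the 2 changes were not called different (adjusted p = 0.409).

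Itgb2, whose β2 chain is common to the leukocyte integrins, had the narrowest range of the 10 genes, with its highest group mean 1.19 times the lowest. Its counts were 3943, 4513 and 3744 in Spl/LN with adjuvant alone, 4615, 4793 and 4485 in Spl/LN with Fat1562, 4783 and 4883 in VAT with adjuvant alone and 4439, 4328 and 4028 in VAT with Fat1562. The VAT libraries lay above those of Spl/LN with adjuvant alone and below them with adjuvant/Fat1562, at log2 fold changes of 0.25 (interval 0.06 to 0.44, adjusted p = 0.0662, and -0.085 with quantile normalization) and -0.12 (-0.29 to 0.05, adjusted p = 0.37).

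Itgb7, the partner of α4 and αE in gut- and epithelium-homing integrins, was the most counted of the integrin chains and was highest in Spl/LN after Fat1562. It had 12769, 13883 and 12073 normalized counts in Spl/LN with adjuvant alone and 16112, 19298 and 15803 with adjuvant/Fat1562. In VAT it had 9072 and 12979 with adjuvant alone and 11322, 10692 and 11573 with adjuvant/Fat1562. The Spl/LN libraries with Fat1562 stood above every other library. The rise in Spl/LN was 1.32-fold (log2 fold change 0.40, SE 0.11, adjusted p = 0.0439) and lost its call without each Spl/LN library in turn except library 2 with adjuvant alone (adjusted p up to 0.227), and with quantile normalization (0.0608). VAT against Spl/LN gave a 1.52-fold lower level with adjuvant/Fat1562 (-0.61, SE 0.11, adjusted p = 0.000712) and -0.23 with adjuvant alone (interval -0.48 to 0.03, adjusted p = 0.227), where the 2 VAT libraries differed from each other. The VAT library with 9072 counts of Itgb7 had 6015 of Ighm and the one with 12979 had 28547, and the part of this in the result was not tested.

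Itga4, whose α4 chain pairs with β1 or β7, was higher in VAT and rose in Spl/LN after Fat1562. Spl/LN with adjuvant alone had 786, 872 and 1171 normalized counts and Spl/LN with adjuvant/Fat1562 had 1585, 1795 and 1431, while VAT had 2184 and 2456 with adjuvant alone and 2650, 2338 and 2174 with adjuvant/Fat1562. These ranges did not overlap except between the VAT groups. Itga4 was 2.46-fold higher in VAT than in Spl/LN with adjuvant alone (log2 fold change 1.30, SE 0.14, adjusted p = 4.62e-06) and 1.49-fold higher with adjuvant/Fat1562 (0.57, SE 0.13, adjusted p = 0.00569). It rose 1.70-fold in Spl/LN after Fat1562 (0.76, SE 0.13, adjusted p = 0.00251), against a log2 fold change of 0.04 in VAT (interval -0.26 to 0.35, adjusted p = 0.919). The difference between these changes, -0.72 (SE 0.19), had an adjusted p of 0.0482. It kept its call without library 3 of either Spl/LN group or library 1 of VAT with Fat1562 and lost it without any of the other 8 libraries (adjusted p up to 0.187).

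Itgae, which encodes the αE chain that binds E-cadherin, was highest in Spl/LN with adjuvant alone and about as low in Spl/LN after Fat1562 as in VAT. It had 5867, 5444 and 5155 normalized counts in Spl/LN with adjuvant alone. The other groups had 2556, 1695 and 1963 (Spl/LN with Fat1562), 1809 and 1827 (VAT with adjuvant alone) and 1860, 1673 and 1695 (VAT with Fat1562), and these 3 overlap each other. Itgae fell 2.65-fold in Spl/LN after Fat1562 (log2 fold change -1.41, SE 0.12, adjusted p = 3.4e-06) and had a log2 fold change of -0.06 in VAT (interval -0.34 to 0.21, adjusted p = 0.849), and the changes differed by 1.34 (SE 0.18, adjusted p = 0.000321). VAT was 3.02-fold lower than Spl/LN with adjuvant alone (-1.59, SE 0.14, adjusted p = 1.72e-07), and with adjuvant/Fat1562 the difference was -0.25 (interval -0.49 to -0.01, adjusted p = 0.171). The 3 calls held with each library left out in turn.

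Itgb1, the β1 chain shared by α4, αV and α6, was lower in VAT and fell in Spl/LN after Fat1562. The libraries had 1114, 1040 and 1043 normalized counts in Spl/LN with adjuvant alone and 792, 647 and 392 with adjuvant/Fat1562, 260 and 168 in VAT with adjuvant alone and 290, 205 and 269 with adjuvant/Fat1562. Every VAT library lay below every Spl/LN library, and the Spl/LN libraries with Fat1562 were spread widest. Itgb1 was 4.95-fold lower in VAT with adjuvant alone (log2 fold change -2.31, SE 0.25, adjusted p = 4.05e-06) and 2.39-fold lower with adjuvant/Fat1562 (-1.26, SE 0.21, adjusted p = 0.000456). In Spl/LN it fell 1.75-fold after Fat1562 (-0.81, SE 0.20, adjusted p = 0.032), a call lost without library 1 or 2 with adjuvant alone or library 2 or 3 with Fat1562 (adjusted p up to 0.106). In VAT its log2 fold change after Fat1562 was 0.24 (interval -0.29 to 0.77, adjusted p = 0.647), and the difference between the tissues, 1.05 (SE 0.32), was not called (adjusted p = 0.0852).

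Itga6, which pairs with β1 to bind laminin, had the lowest mean of the 10 genes in every group except Spl/LN with adjuvant alone, where Itgb3 was lower. Spl/LN with adjuvant alone had 197, 166 and 192 normalized counts and Spl/LN with Fat1562 had 154, 176 and 128, while VAT had 127 and 104 with adjuvant alone and 82.0, 46.8 and 133 with Fat1562. With adjuvant alone the VAT libraries lay below the Spl/LN libraries, and in the other comparisons the groups overlapped. The log2 fold changes between VAT and Spl/LN, -0.68 with adjuvant alone (interval -1.34 to -0.02, adjusted p = 0.161) and -0.79 with adjuvant/Fat1562 (-1.38 to -0.21, adjusted p = 0.066), were not called. The second was called in 6 of 15 alternatives, among them DESeq2's Wald test (adjusted p = 0.0413), and without VAT library 3 with Fat1562 it was -1.25 (adjusted p = 0.00508).

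The αV and β3 chains, which form a receptor for vitronectin and osteopontin, were both higher in VAT and both rose in Spl/LN after Fat1562. Itgav had 231, 210 and 238 normalized counts in Spl/LN with adjuvant alone, 460, 449 and 346 there after Fat1562, 1276 and 1363 in VAT with adjuvant alone and 1698, 1512 and 1304 with adjuvant/Fat1562. Every VAT library was above every Spl/LN library, and the Spl/LN groups did not overlap. Itgav was 5.82-fold higher in VAT with adjuvant alone (log2 fold change 2.54, SE 0.14, adjusted p = 7.47e-10), the highest fold among the 10 genes, and 3.60-fold higher with adjuvant/Fat1562 (1.85, SE 0.13, adjusted p = 1.81e-08). It rose 1.84-fold in Spl/LN after Fat1562 (0.88, SE 0.13, adjusted p = 0.000817). In VAT its log2 fold change was 0.19 (interval -0.10 to 0.48, adjusted p = 0.479), and the difference of -0.69 (SE 0.19) between the tissues had an adjusted p of 0.0517.

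Itgb3 had 147, 129 and 57.5 normalized counts in Spl/LN with adjuvant alone and 315, 344 and 275 with adjuvant/Fat1562, 530 and 529 in VAT with adjuvant alone and 707, 537 and 406 with adjuvant/Fat1562. It was 4.78-fold higher in VAT than in Spl/LN with adjuvant alone (log2 fold change 2.26, SE 0.28, adjusted p = 1.36e-05) and 1.77-fold higher with adjuvant/Fat1562 (0.82, SE 0.24, adjusted p = 0.0261). The second call was lost without each library compared except library 3 of VAT with Fat1562 (adjusted p up to 0.162). After Fat1562 it rose 2.81-fold in Spl/LN (1.49, SE 0.26, adjusted p = 0.00251) and had a log2 fold change of 0.05 in VAT (interval -0.50 to 0.61, adjusted p = 0.948). The changes differed by -1.44 (SE 0.36, adjusted p = 0.0362), and this call was lost without Spl/LN library 1 or 2 with Fat1562, either VAT library with adjuvant alone, or VAT library 2 or 3 with Fat1562 (adjusted p up to 0.103). Itgb3 is also a gene of platelets, and the 5 platelet markers summed to at most 19.1 normalized counts in any library.

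Klrg1 had its lowest level in Spl/LN with adjuvant alone and its highest in VAT with adjuvant alone, and after Fat1562 it moved up in the first and down in the second. Its normalized counts were 4575, 5436 and 5240 in Spl/LN with adjuvant alone, 6739, 8820 and 8150 in Spl/LN with adjuvant/Fat1562, 12850 and 12609 in VAT with adjuvant alone and 10609, 8687 and 9163 in VAT with adjuvant/Fat1562. The 2 groups given Fat1562 overlapped, and no other groups did. With adjuvant alone Klrg1 was 2.5-fold higher in VAT (log2 fold change 1.32, SE 0.11, adjusted p = 1.01e-07), and with adjuvant/Fat1562 the log2 fold change was 0.26 (interval 0.06 to 0.47, adjusted p = 0.0845). It rose 1.55-fold in Spl/LN after Fat1562 (0.64, SE 0.10, adjusted p = 0.00104) and fell 1.34-fold in VAT (-0.42, SE 0.11, adjusted p = 0.0216). The fall in VAT kept its call only without VAT library 1 with Fat1562 and lost it without each of the other 4 VAT libraries (adjusted p up to 0.12). The changes in the 2 tissues differed by -1.06 (SE 0.15, adjusted p = 0.00052), a call held without each of the 11 libraries in turn.

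**Figure D2:**
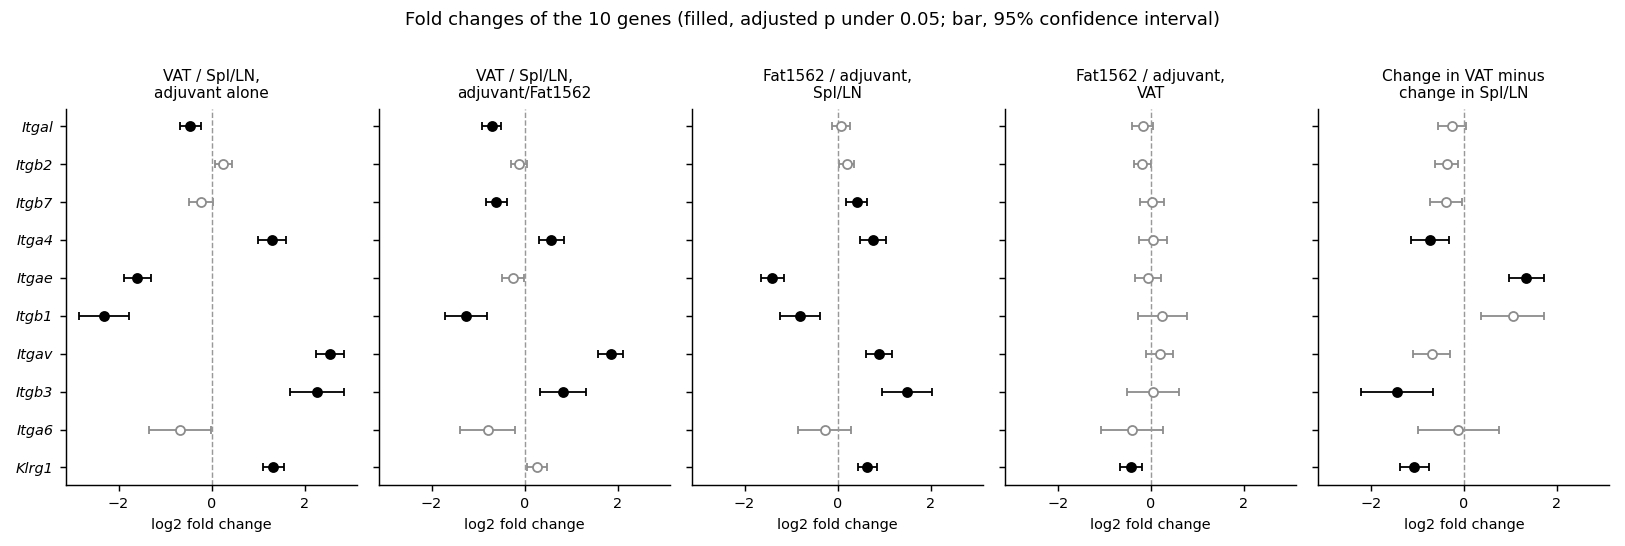
Log2 fold changes of the 10 genes from edgeR's fit with 95% confidence intervals, 1 panel for each comparison, filled where the adjusted p was under 0.05. After Fat1562 7 genes are filled in Spl/LN and only Klrg1, at -0.42, in VAT, and Itgav has the highest value at 2.54 between VAT and Spl/LN with adjuvant alone.

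Because chains act in pairs, the ratio of alpha to beta chain counts per kilobase was computed in each library, as a description without a test. RNA ratios say nothing of how chains pair on the cell surface. For the E-cadherin receptor, Itgae over Itgb7 was 0.274 to 0.321 in Spl/LN with adjuvant alone and 0.0613 to 0.139 in all other libraries. For the gut-homing pair, Itga4 over Itgb7 was 0.0169 to 0.027 in Spl/LN and 0.0516 to 0.0661 in VAT. For the VCAM-1 receptor, Itga4 over Itgb1 was 0.276 to 0.439 in Spl/LN with adjuvant alone, 0.781 to 1.43 in Spl/LN with Fat1562 and 3.16 to 5.70 in VAT, so that α4 counts per kb passed those of β1 in every VAT library. Itgav over Itgb1 was 0.109 to 0.124, 0.314 to 0.477 and 2.62 to 4.38 in the same 3 sets of libraries. These 2 ratios followed the opposite directions of their chains. Itgav over Itgb3, 2 chains that were higher in the same groups, was 1.97 to 2.64 in VAT and 1.03 to 1.34 in Spl/LN except in library 3 with adjuvant alone, which had 57.5 counts of Itgb3 and a ratio of 3.40. Itgal over Itgb2 was 0.431 to 0.545 in Spl/LN and 0.294 to 0.329 in VAT, and Itga6 over Itgb1 stayed under 1 in every library (0.141 to 0.544).

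**Figure D3:**
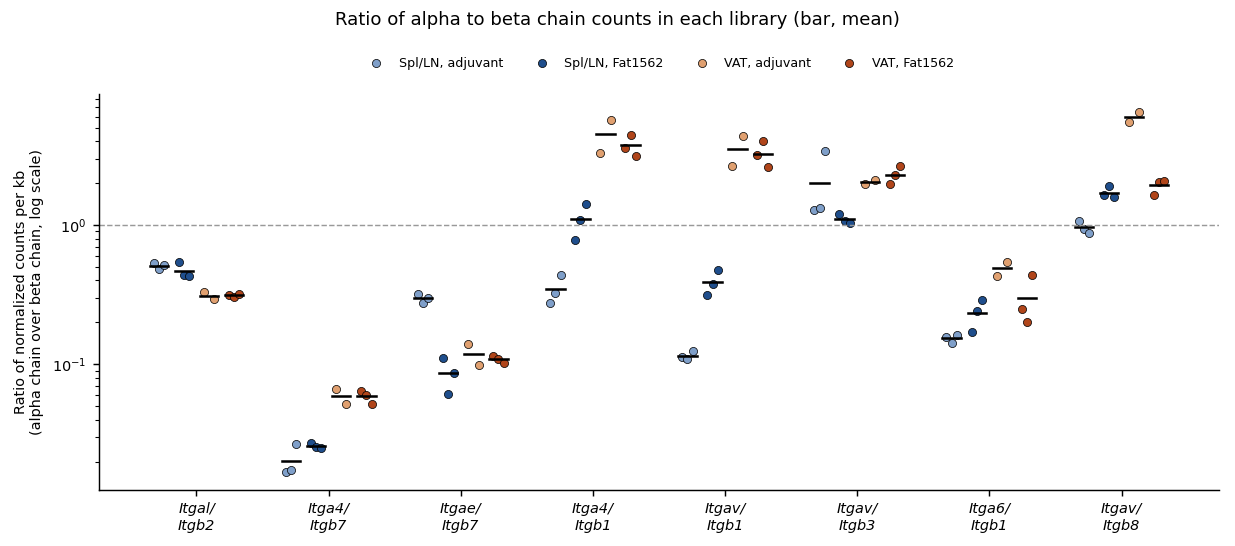
Ratio of alpha to beta chain normalized counts per kilobase of the longest transcript in each library (points, log scale) with the group mean (bar), for 7 pairs of the 10 genes and for Itgav with Itgb8. Itga4 over Itgb1 is at 3.16 or above and Itgav over Itgb1 at 2.62 or above in every VAT library, and Itgae over Itgb7 is at 0.274 or above only in Spl/LN with adjuvant alone.

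Of the other 17 integrin chains, 8 passed the filter, and Itgb8 and Itga3 were the ones whose calls held with each library left out in turn. Itgb8, whose β8 chain pairs only with αV and releases active TGF-β from its latent form, had 256, 269 and 323 normalized counts in Spl/LN with adjuvant alone, 331, 281 and 261 in Spl/LN with Fat1562, 276 and 248 in VAT with adjuvant alone and 1229, 879 and 744 in VAT with Fat1562. The last group stood above all other libraries. Itgb8 rose 3.62-fold in VAT after Fat1562 (log2 fold change 1.85, SE 0.20, adjusted p = 1.17e-05), and this exceeded the change in Spl/LN by 1.81 (SE 0.26, adjusted p = 0.000685), with both calls held in every alternative run. The ratio of Itgav to Itgb8 per kb was 5.50 and 6.54 in VAT with adjuvant alone and 1.65 to 2.09 in VAT with Fat1562. Itga3, whose α3 chain binds laminin with β1, had means of 89.8, 161, 246 and 358 normalized counts in the same order of groups and was higher in VAT than in Spl/LN with adjuvant alone (1.45, SE 0.17, adjusted p = 1.01e-05) and with Fat1562 (1.15, SE 0.15, adjusted p = 3.54e-05) and rose in Spl/LN after Fat1562 (0.84, SE 0.16, adjusted p = 0.00541).

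The remaining 6 chains were at lower levels. Itga7 (13.7 to 207 normalized counts per library) was called lower in VAT in both tissue comparisons (adjusted p = 0.0345 and 0.0167), Itga2 (41.6 to 126) lower in VAT with adjuvant/Fat1562 (adjusted p = 0.0464), and Itga1 (1.93 to 47.4) higher in VAT with adjuvant alone (adjusted p = 0.0397). Itgam, which encodes a myeloid β2 partner and shares 3450 exon bases with Gm49368, had 0 and 6.24 normalized counts in VAT with adjuvant alone against 11.5 to 41.1 in Spl/LN (adjusted p = 0.0351) and 12.2 to 59.6 in VAT with Fat1562 (adjusted p = 0.0498), while the macrophage markers summed to at most 120. Each of these calls was lost when 2 or more of the libraries were left out singly (adjusted p up to 0.316). Itga5 and Itga11 were not called, and the 9 chains that did not pass the filter, among them Itgax, Itga2b and Itgb5, had at most 15 raw counts in any library. Over the 5 comparisons the list's median log2 fold change ran from -0.09 to 0.76. Of its 8 chains 4, 4, 2, 1 and 1 were called in the 2 tissue comparisons, in VAT, in Spl/LN and in the interaction. Among all tested genes the shares called were 16.3%, 15.0%, 8.30%, 3.98% and 3.72%, in the same order.

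Of 24 tested genes that switch integrins to their active form or back (26 listed), 10 were called in VAT after Fat1562, 2 higher and 8 lower, where 8.30% of all tested genes were called. In Spl/LN 1 was called, higher, where 3.98% of all tested genes were. Between the tissues 2 were higher and 2 lower in VAT with adjuvant alone, about the share of all tested genes (16.3%). With adjuvant/Fat1562, 1 was higher and 6 lower in VAT, where 15.0% of all tested genes were called. In the interaction 2 were called lower, where 3.72% of all tested genes were called. The median log2 fold change lay between -0.18 and -0.05 in the 5 comparisons. In VAT after Fat1562, Rasgrp1, an exchange factor for Ras, fell by 0.69 on the log2 scale (adjusted p = 0.00134), Skap1, an adaptor for LFA-1 adhesion, fell by 0.56 (adjusted p = 0.00247), and Rasgrp2, an exchange factor that loads the small GTPase Rap1, fell by 1.40 (adjusted p = 0.00267). Sipa1, which turns Rap1 off, rose there by 0.68 (adjusted p = 0.002). Rasgrp2 had 278 to 383 normalized counts in Spl/LN, 111 and 77.3 in VAT with adjuvant alone and 24.7 to 46.5 in VAT with Fat1562, with no overlap between Spl/LN and VAT (log2 fold change -1.85 and -3.15, adjusted p = 3.38e-05 and 4.84e-08). Sipa1 was also lower in VAT than in Spl/LN (-1.04 and -0.67, adjusted p = 1.11e-05 and 0.000281). Rap1b, a Rap1 GTPase, was higher in VAT (0.86 and 0.35, adjusted p = 3.66e-05 and 0.0296) and rose in Spl/LN after Fat1562 (0.51, adjusted p = 0.00929). Skap1 (-0.69, adjusted p = 6.54e-05) and filamin A, Flna (-0.33, adjusted p = 0.015), were lower in VAT with adjuvant/Fat1562, and kindlin-3, Fermt3, was higher in VAT with adjuvant alone (0.30, adjusted p = 0.0349). In the interaction Flna (-0.61, adjusted p = 0.0129) and Rasgrp2 (-1.29, adjusted p = 0.0376) were called. Without library 1 of VAT with adjuvant alone, the calls of Rasgrp2 (adjusted p = 0.071) and Sipa1 (0.0561) after Fat1562 in VAT and of Flna (0.0738) and Rasgrp2 in the interaction were lost, and so was that of Fermt3 (0.382), whose sign turned with quantile normalization (-0.02). Rap1b lost its call in Spl/LN without library 2 with Fat1562 (0.0777). Leaving out single libraries also ended the calls of Flna, with an adjusted p up to 0.0754, and of Rap1b, up to 0.121, between the tissues with adjuvant/Fat1562, and of Rasgrp2 in the interaction, up to 0.223.

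In the list of adhesion-complex and outside-in signaling genes, 18 of 22 were tested. Between the tissues 0 and 1 were called, by edgeR, beside 16.3% and 15.0% of all tested genes, and 5 and 2 had an unadjusted p under 0.05. After Fat1562 2 rose in VAT and 2 in Spl/LN, with 1 called in the interaction, beside 8.30%, 3.98% and 3.72% of all tested genes. The list's median log2 fold change lay between -0.10 and 0.19. Lims1 (PINCH-1), which links integrin-linked kinase to the adhesion complex, rose in VAT (0.64, SE 0.12, adjusted p = 0.00312) and lost its call without library 2 of VAT with adjuvant alone (adjusted p = 0.0847). Zyxin, Zyx (0.51, adjusted p = 0.0118), and the docking protein Nedd9 (0.40, adjusted p = 0.0227) rose in Spl/LN. Zyx lost its call without Spl/LN library 2 with Fat1562 (adjusted p = 0.0673) and Nedd9 without library 1 or 2 of either Spl/LN group (up to 0.113). Bcar1, the docking protein p130Cas, had 36.7, 35.4 and 51.1 normalized counts in Spl/LN with adjuvant alone, 15.3, 3.21 and 32.8 with Fat1562, 13.0 and 15.0 in VAT with adjuvant alone and 91.0, 72.2 and 83.9 with Fat1562, where it stood above all other libraries. It was called in VAT after Fat1562 (2.55, SE 0.60, adjusted p = 0.0123), between the tissues with adjuvant/Fat1562 (2.22, adjusted p = 0.00471) and in the interaction (3.77, adjusted p = 0.00994). The call in VAT was lost without either library with adjuvant alone (adjusted p up to 0.108) and that in the interaction without library 1 of these (0.0609).

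Ligands of these integrins were measured in the same Treg cells, and the cadherins had few counts. E-cadherin, Cdh1, which Klrg1 and αEβ7 bind, had at most 7 raw counts in any library, as did Cdh2, and Cdh4 had at most 5. Of 21 ligand genes, 9 were tested. Called in VAT against Spl/LN were 3 higher and 1 lower with adjuvant alone, and 3 and 2 with Fat1562. After Fat1562, 1 and 1 were called in VAT, 1 and 0 in Spl/LN and 0 and 1 in the interaction. Among all tested genes the shares called were 16.3%, 15.0%, 8.30%, 3.98% and 3.72%, in the same order. The list's median log2 fold change lay between -0.08 and 0.37. Icam1, a ligand of LFA-1, had 1099, 1257 and 1297 normalized counts in Spl/LN with adjuvant alone and 2455 and 2028 in VAT (log2 fold change 0.88, SE 0.12, adjusted p = 3.59e-05). In VAT it fell by 0.44 after Fat1562 (adjusted p = 0.0255), and the change differed from that in Spl/LN by -0.63 (adjusted p = 0.0351). Without library 1 of VAT with adjuvant alone neither of these 2 was called (adjusted p = 0.321 and 0.213), and leaving out VAT library 2 or 3 with Fat1562 also ended each of them (adjusted p from 0.0539 to 0.093), as did Spl/LN library 1 with adjuvant alone or library 2 or 3 with Fat1562 in the interaction. Icam2, another LFA-1 ligand, was lower in VAT (-0.69 and -0.55, adjusted p = 0.023 and 0.0349), and both calls depended on single libraries (adjusted p up to 0.255). Lamc1, the laminin γ1 chain, was higher in VAT in both tissue comparisons (1.25 with adjuvant alone, adjusted p = 7.38e-06, and 1.14 with Fat1562, adjusted p = 6.77e-06), and rose after Fat1562 in Spl/LN (0.61, adjusted p = 0.014) and in VAT (0.50, adjusted p = 0.0405). Its call in VAT was lost without any 1 of the 5 VAT libraries (adjusted p up to 0.346) and in Spl/LN without library 2 with Fat1562 (0.0935). Osteopontin, Spp1, which αV integrins bind, had 69.7, 81.4 and 28.3 normalized counts in VAT with Fat1562 and at most 11.5 in the other libraries (VAT against Spl/LN with adjuvant/Fat1562, 3.67, adjusted p = 0.0068), and Cd47 was lower in that comparison (-0.30, adjusted p = 0.0353), a call lost without any 1 of the 6 libraries (adjusted p up to 0.113).

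TGF-β is known to induce the αE chain, and αV integrins release it from its latent form. Of 21 genes of this axis 19 were tested. Between the tissues 4 were higher and 1 lower in VAT with adjuvant alone, and 4 and 2 with adjuvant/Fat1562. After Fat1562, 1 was higher and 0 lower in VAT, and 1 and 1 in Spl/LN. In the interaction 1 was higher and 2 lower. Of all tested genes, 16.3%, 15.0%, 8.30%, 3.98% and 3.72% were called in the same order, and the axis was below that share in VAT after Fat1562. The median log2 fold change lay between -0.09 and 0.11. Lrrc32 (GARP), which holds latent TGF-β on the Treg surface, was called in all 5 comparisons. It had 543, 797 and 597 normalized counts in Spl/LN with adjuvant alone, 341, 280 and 348 in Spl/LN with Fat1562, 253 and 292 in VAT with adjuvant alone and 1252, 1167 and 1022 in VAT with Fat1562, above every other library. It fell by 0.99 on the log2 scale in Spl/LN after Fat1562 (SE 0.15, adjusted p = 0.000682) and rose by 2.08 in VAT (SE 0.18, adjusted p = 1.16e-06), a difference of 3.07 (SE 0.23, adjusted p = 2.53e-06). Between VAT and Spl/LN its log2 fold change was -1.25 with adjuvant alone (adjusted p = 5.45e-05) and 1.82 with adjuvant/Fat1562 (adjusted p = 1.39e-07). Itgae, side by side, was -1.59 and -0.25 in those comparisons.

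Other genes of the axis were higher in VAT in both tissue comparisons. They were Skil, a repressor of SMAD proteins (1.34 and 1.72, adjusted p = 1.79e-05 and 5.25e-07), Furin, a protease that cleaves the TGF-β precursor (1.48 and 1.76, adjusted p = 0.00103 and 9.28e-05), and the inhibitory Smad7 (1.01 and 1.76, adjusted p = 0.00469 and 1.46e-05), whose call with adjuvant alone was lost without VAT library 1 (adjusted p = 0.174). Tgfb1 itself, also in the list of ligands, was higher in VAT with adjuvant alone (1.07, adjusted p = 0.00528), but not without VAT library 2 (adjusted p = 0.0598). Nrros, a relative of Lrrc32 that also holds latent TGF-β, rose by 0.45 in Spl/LN after Fat1562 (adjusted p = 0.0468), a call lost without any 1 of the 6 Spl/LN libraries (adjusted p up to 0.212), and its changes differed between the tissues by -0.90 (adjusted p = 0.00931). For Smad3 that difference was -0.85 (adjusted p = 0.0377), lost without 8 of the 11 libraries in turn (adjusted p up to 0.181).

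**Figure D4:**
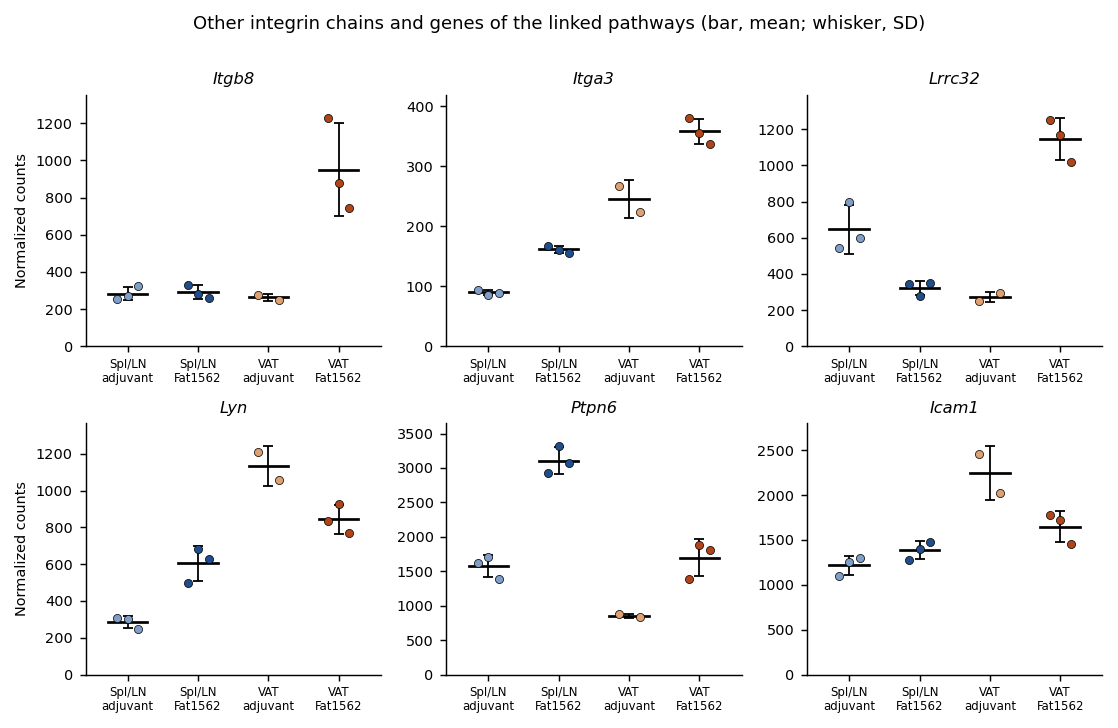
Normalized counts in each of the 11 libraries (points) of 2 further integrin chains and of 4 genes of the linked pathways, with the group mean (bar) and SD (whisker), on linear axes from 0. Itgb8 and Lrrc32 stand apart in VAT with Fat1562, while Lyn and Icam1 have their highest mean in VAT with adjuvant alone and Ptpn6 in Spl/LN with Fat1562.

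Phosphatases and kinases that act at ITIM receptors such as Klrg1 were all tested (9 of 9). Of these, 5 were called in each tissue comparison, 3 in VAT and 2 in Spl/LN after Fat1562 and 1 in the interaction. Among all tested genes 16.3% and 15.0% were called between the tissues, 8.30% in VAT, 3.98% in Spl/LN and 3.72% in the interaction. The list's median log2 fold change lay between -0.28 and 0.28. Inpp5d (SHIP-1), a phosphatase that Klrg1 is known to recruit, had 1372 to 1409 normalized counts in Spl/LN with adjuvant alone and 2221 and 2135 in VAT (log2 fold change 0.65, SE 0.10, adjusted p = 0.000103). Ptpn6 (SHP-1), another ITIM phosphatase, was lower in VAT in both comparisons (-0.88 and -0.87, adjusted p = 0.000107 and 2.66e-05) and rose after Fat1562 in both tissues (0.98 in Spl/LN and 0.99 in VAT, adjusted p = 6.15e-05 and 9.32e-05). Lyn, a kinase that phosphorylates ITIMs, had 307, 300 and 246 normalized counts in Spl/LN with adjuvant alone, 499, 684 and 630 with Fat1562, 1209 and 1058 in VAT with adjuvant alone and 833, 928 and 768 with Fat1562. No groups of Lyn overlapped. It was higher in VAT in both tissue comparisons (2.00, SE 0.15, adjusted p = 3.04e-08, with adjuvant alone and 0.48, SE 0.13, adjusted p = 0.0194, with Fat1562) and rose in Spl/LN after Fat1562 (1.09, SE 0.14, adjusted p = 0.000154), and its changes differed between the tissues by -1.52 (SE 0.20, adjusted p = 0.000321). The call with adjuvant/Fat1562 was lost without Spl/LN library 1 or VAT library 1 or 2 (adjusted p up to 0.105). Csk, which restrains Src kinases, was lower in VAT in both comparisons (-0.50 and -0.47, adjusted p = 0.00247 and 0.00156), and Pag1, which anchors it, in the second (-0.55, adjusted p = 0.0277). Ptpn22 (0.64, adjusted p = 0.0019) and Lck (0.46, adjusted p = 0.00432) rose in VAT after Fat1562. Without library 2 of VAT with adjuvant alone, the calls of Ptpn22 (adjusted p = 0.0593), Lck (0.104) and, with adjuvant alone, Csk (0.0662) were lost, and that of Pag1 was lost without 5 of 6 libraries in turn (up to 0.134).

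Klrg1 was the one killer cell lectin-like receptor with more than low counts. Of 24 others, 23 were in the table and 3 (Klrk1, Klrb1c, Klrb1f) passed the filter, and the other 20 had at most 13 raw counts in any library. Klrb1c had 16.2, 29.9 and 30.4 normalized counts in Spl/LN with Fat1562 and at most 4.07 in all other libraries (after Fat1562 in Spl/LN, adjusted p = 0.0463, and VAT against Spl/LN with adjuvant/Fat1562, adjusted p = 0.00861). The first of these calls was lost without 5 of the 6 Spl/LN libraries in turn (adjusted p up to 0.154). Klrk1 (NKG2D) had 36.7, 6.25 and 7.30 in Spl/LN with adjuvant alone and 0 in both VAT libraries with adjuvant alone (adjusted p = 0.0328), a call lost without either VAT library (adjusted p up to 0.162). The list's median log2 fold change rests on these 3 low genes and ran from -1.74 to 1.05.

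The genes most like Klrg1 across the 11 libraries, by Pearson correlation of log2 CPM among tested genes, were Xlr4a (r = 0.99), Lilrb4a (0.973), Adam8 (0.968), Actg1 (0.962) and Cmpk1 (0.962). Lilrb4a, itself an inhibitory receptor with ITIMs, had group means of 183, 461, 1895 and 1112 normalized counts in Spl/LN with adjuvant alone, Spl/LN with Fat1562, VAT with adjuvant alone and VAT with Fat1562, and Adam8, a membrane protease, had 548, 1139, 2046 and 1519. Those most like Itgae were Capn3 (0.98), Ift80 (0.967), Dlg4 (0.957), Ccr7 (0.957) and Gm6831 (0.938). Ccr7, the receptor that guides T cells into lymph nodes, had group means of 854, 101, 87.6 and 125 in the same order, and the protease gene Capn3 had 185, 37.9, 23.6 and 19.3. These correlations are descriptions: the libraries fall into 4 groups whose means set most of the value.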

How the data were processed

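RNA was measured in 11 Smart-seq2 libraries, grouped by the sample labels. The authors deposited 1 table of counts, whole numbers per gene symbol without normalization, from paired reads of 38 bases, and 0 of its columns were left unmatched. The submitters' processing notes list STAR 2.5.4, featureCounts and mm10, and the paper's methods name Cuffquant. The annotation and strand setting are not given in the sources used here. No molecular identifiers are named, so a count is of amplified fragments.

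Genes with a scaled mean above 10 in at least 1 group (12932 of 52997) entered a quasi-likelihood test by edgeR 4.0.16 (R 4.3.3, TMM scaling, prior count 0.125), in 1 fit of the 4 groups, with Benjamini-Hochberg adjustment over all tested genes. The interaction is the change after Fat1562 in VAT minus that in Spl/LN. Calls are at an adjusted p under 0.05. SDs are between libraries, SEs are from the test statistic, and intervals cover 95%. The members and lists were chosen with earlier results of these data known. Beside the 10 members, the genes named were, by rule, the other integrin chains that passed the filter, up to 4 called genes per list and comparison with the smallest adjusted p, the 5 genes most correlated with Klrg1 and with Itgae, and checks of the sorted cells; genes below the filter were named for their counts, and Lilrb4a, Adam8, Ccr7 and Capn3 were described after their values were seen. Positions and lengths came from GENCODE vM21 and promoter windows from RefSeq. Alternatives changed the filter, the scaling (DESeq2 size factors, quantile), the tool (limma-voom 3.58.1 with array weights, DESeq2 1.42.0), the groups in the fit, a replicate block, and left out each library in turn. On simulated counts with 200 of 12418 genes changed, the fit recovered 67 of 100 genes changed 2-fold and 97 of 100 changed 4-fold between the VAT groups, with 7 false calls, and 48 and 93 of 100 in the interaction, with 6 false calls. The changed genes were drawn only from genes with mean counts well above the filter, so these rates do not cover genes near it.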

Additional observations from a re-analysis of the deposited data

Results flagged for a closer look

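Changes after Fat1562 that differed between VAT and Spl/LN, by the interaction term of edgeR's quasi-likelihood fit, are given as the log2 fold change in VAT minus that in Spl/LN. Among the 10 genes they were 1.34 for Itgae, -0.72 for Itga4, -1.44 for Itgb3 and -1.06 for Klrg1. With Fat1562, Klrg1 was higher in all 3 Spl/LN libraries, and lower in all 3 VAT libraries, than in any library of the same tissue with adjuvant alone. Such groups did not overlap for 21.2% of all tested genes in Spl/LN and 41.1% in VAT. The call of its fall in VAT depended on single libraries, while that of its interaction did not. For Itga4 and Itgb3 the difference had an adjusted p of 0.0482 and 0.0362 and depended on single libraries.

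Among the genes of the pathway lists, the difference was 3.07 for Lrrc32, 1.81 for Itgb8, 3.77 for Bcar1, -1.52 for Lyn, -0.90 for Nrros, -0.85 for Smad3, -1.29 for Rasgrp2, -0.61 for Flna and -0.63 for Icam1. Lrrc32 was called in both tissues and in opposite directions, and Itgb8 and Bcar1 stood above all other libraries in VAT with Fat1562. Groups of 2 or 3 libraries are too small for a test of single libraries that stand apart, and none was made.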

How the results depend on the processing

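Of 770 log2 fold changes of the 10 genes under the alternatives, 691 kept their direction and their side of the threshold, 35 lost a call, 31 gained one and 13 changed sign, none of these a called value. Of 90 calls of pathway genes, 41 were kept in every alternative. By a fit without a filter on low counts and by DESeq2's Wald test, 7 of the 10 genes were called in the interaction in place of 4, and over all genes 793 were called after Fat1562 in Spl/LN by both (515 by the fit reported), and 783 by DESeq2 in the interaction (481). Quantile normalization with limma-voom turned the sign of Itgb2 (-0.085, VAT against Spl/LN with adjuvant alone), Itgb3 (-0.013, after Fat1562 in VAT), Itgal (-0.047, after Fat1562 in Spl/LN) and Fermt3 (-0.019, in the first of these comparisons), and the cause was not tested. It moved the calls after Fat1562 in Spl/LN from 334 higher and 181 lower to 304 and 252.

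With single libraries left out, 0 to 1 of the 10 genes were called in VAT and 2 to 5 in the interaction, and over all genes 1259 to 2114 and 1289 to 1704 between the tissues, 508 to 827 in VAT, 190 to 487 in Spl/LN and 240 to 576 in the interaction. The log2 fold changes that changed sign then ran from -0.51 to 0.0033 for Itgb7 between the tissues with adjuvant alone, from -0.046 to 0.13 for Itga4, -0.032 to 0.60 for Itgb1, -0.17 to 0.23 for Itgb3 and -0.21 to 0.31 for Itgb7 after Fat1562 in VAT, from -0.045 to 0.15 for Itgal after Fat1562 in Spl/LN, and from -0.57 to 0.18 for Itga6 in the interaction. Without 1 VAT library with adjuvant alone the other stands alone in its group and is assumed to vary like the rest.

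The labels do not say whether same-numbered libraries of the 2 tissues share a recipient. Within an immunization, their deviations from the group means correlated weakly and positively. The r values were 0.048 and 0.062 with adjuvant alone and 0.12, 0.029 and 0.042 with Fat1562. Differently numbered libraries of the 2 tissues had r from -0.12 to 0.084 within an immunization. A pairing of the tissues cannot be settled from these values, and the numbers were not taken as pairs in the main fit. With the replicate number as a block, 1 of the interaction calls of the 10 genes was lost (Itga4, adjusted p = 0.0708) and 1 gained (Itgb1, 1.19, adjusted p = 0.0292), 4 were called as without it, and no other call of the 10 genes changed. This block also joined same-numbered libraries of adjuvant alone and Fat1562, which are different recipients. It is therefore not a pairing of the tissues within a recipient, and a block within each immunization was not fitted. With union exon lengths in place of the longest transcript, the ratio of Itga4 to Itgb1 in Spl/LN with Fat1562 was 0.82, below 1. In libraries of 4490242 counts or more, the chains with at most 15 counts could not be compared.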

Other observations

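Within VAT with Fat1562, the first library had the highest normalized counts of every member except Itga6 and Itgb7, which were highest in the third. Among members not called higher in VAT, the first library had 1860 of Itgae against 1673 and 1695. Itgal had 2456 there against 2305 and 2264, Itgb1 290 against 205 and 269, and Itgb2 4439 against 4328 and 4028. Of the genes higher in VAT, Itgb3 had 707 there against 537 and 406, and Itgav 1698 against 1512 and 1304. Itga4 had 2650 against 2338 and 2174, Klrg1 10609 against 8687 and 9163, and Itgb8 1229 against 879 and 744. The same library had 11302 counts of Il2ra against 7602 and 6328 and 7559 of Gzmb against 3593 and 2240. Foxp3 was 9092, 8252 and 9111 in the 3 libraries. Within Spl/LN with Fat1562, the third library had the lowest normalized counts of every member except Itgae and Klrg1. It had the lowest Itgb1 (392 against 792 and 647), Itgav (346 against 460 and 449), Itgb3 (275 against 315 and 344) and Itga4 (1431 against 1585 and 1795). The same held for Itga6 (128 against 154 and 176) and Itgal (3401 against 4426 and 3672). It also held for Itgb2 (4485 against 4615 and 4793) and Itgb7 (15803 against 16112 and 19298). Itgae was lowest in the second library (1695) and Klrg1 in the first (6739).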
